A study of Homo sapiens with 12 samples.

Results

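The genes described here were the 8 MEIS, PKNOX and PBX genes MEIS1, MEIS2, MEIS3, PKNOX1, PKNOX2, PBX2, PBX3 and PBX4, chosen by symbol as cofactors of the HOX proteins. They were 8 of the 52889 gene entries of the count table, and 8 of 8 were among the 27579 entries that were tested. Their chromatin accessibility was measured by ATAC-Seq, in which the transposase Tn5 cuts open DNA in nuclei and attaches sequencing adapters. The cells were HEK293T, a human embryonic kidney line, with 12 samples in 4 groups of 3 biological replicates. The vectors were of the Sleeping Beauty type, and the study's methods describe lines selected with antibiotics as whole populations, with no cloning step. Mock cells held the empty vector pSBTet-GP and no fusion gene. In d0, the cells expressed MLL-AF4, a fusion of KMT2A (MLL) with AFF1 (AF4) that arises in the t(4;11) translocation of acute leukaemia, and they did so constitutively. Cells of d3 expressed MLL-AF4 and, after 48 h with 1 µg/ml doxycycline, the reciprocal fusion AF4-MLL from a vector introduced in a second, transient transfection. Cells of d28 had AF4-MLL shut down for 25 days and kept MLL-AF4. The labels give d0 and d28 one genotype, the earlier induction of d28 comes from the study's methods, and the harvest day of the Mock cells is given by neither.

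MEIS, PKNOX (also called PREP) and PBX proteins are homeodomain proteins of the TALE class, whose homeodomain carries extra residues in a loop. A MEIS or PKNOX protein pairs with a PBX protein, which helps keep it in the nucleus, and these pairs bind DNA together with HOX proteins and sharpen which sites they choose. MEIS1 is known as a partner of HOXA9 in leukaemias with MLL fusions, and MEIS2, PBX3 and PBX2 have also been studied there. The question was whether the accessibility of these cofactor genes differed between cells with one or both fusion proteins and Mock cells.

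Of the 8 genes, MEIS1 and MEIS2 were higher in cells with fusion proteins, and the other 6 passed the test in no comparison. MEIS1 was higher on all 3 days with fusion proteins, at 1.54-fold to 1.69-fold the level in Mock cells. Its call held in 14 of 15 alternative analyses at d3, but in only 8 of 15 at d0 and 7 of 15 at d28. MEIS2 was higher at d3 and d28, about 2.07-fold and 1.97-fold, and its d0 level lay between those of Mock cells and d3. A low Mock replicate with 9 counts added to the size of both MEIS2 values. Of the 10 nearest tested protein-coding genes, 5 on either side of MEIS2, 8 also had a positive log2 fold change at d3 and 9 at d28. The promoters of MEIS1 and MEIS2 are printed because they belong to the only members that passed the test in any comparison. They are the 250 bases before and 50 bases after a transcription start in RefSeq (GRCh38.p14), read on the gene's strand. MEIS1 has 1 entry at chr2:66434875-66435174 on the plus strand, and MEIS2 has 2 on the minus strand, at chr15:37099057-37099356 (MEIS2 a) and chr15:37098647-37098946 (MEIS2 b). Capitals mark a match to TGATNNAT, a motif of a PBX protein with a HOX protein.
MEIS1: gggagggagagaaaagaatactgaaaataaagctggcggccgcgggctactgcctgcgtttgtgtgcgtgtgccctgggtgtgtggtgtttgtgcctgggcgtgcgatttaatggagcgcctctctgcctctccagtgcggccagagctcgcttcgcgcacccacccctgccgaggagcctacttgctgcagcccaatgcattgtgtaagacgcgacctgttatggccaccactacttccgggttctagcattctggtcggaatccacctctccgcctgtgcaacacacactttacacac
MEIS2 a: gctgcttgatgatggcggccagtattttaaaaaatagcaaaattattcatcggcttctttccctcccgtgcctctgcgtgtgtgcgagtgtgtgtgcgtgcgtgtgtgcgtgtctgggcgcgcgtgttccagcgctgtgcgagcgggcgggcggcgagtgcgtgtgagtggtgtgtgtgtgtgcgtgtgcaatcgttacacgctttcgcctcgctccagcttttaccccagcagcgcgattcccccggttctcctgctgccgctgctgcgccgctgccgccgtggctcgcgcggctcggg
MEIS2 b: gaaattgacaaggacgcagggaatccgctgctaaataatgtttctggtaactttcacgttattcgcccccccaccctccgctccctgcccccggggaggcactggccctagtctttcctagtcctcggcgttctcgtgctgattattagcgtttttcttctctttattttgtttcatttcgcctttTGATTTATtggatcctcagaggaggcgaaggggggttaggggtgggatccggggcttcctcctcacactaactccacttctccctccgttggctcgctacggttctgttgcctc

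Of the 8 members, 7 matched the RefSeq promoter table. Both strands were searched for TGACAG (the MEIS and PKNOX core), TGATTGAC (PBX with MEIS or PKNOX, which can overlap the first by 4 letters) and TGATNNAT. These motifs were held by 15.8%, 0.575% and 7.4% of all 35116 promoters of 300 bases. MEIS1 and MEIS2 a held no match, and MEIS2 b held 1 match to TGATNNAT at base 187. PBX3 held 1 match to TGACAG, and the remaining promoters of MEIS3, PBX2, PBX4 and PKNOX1 held none. A match describes letters only. The share of G and C was 58.3% for MEIS1, 62.7% and 53% for MEIS2 a and b, and 58.7% in the median promoter. MEIS2 a held 35 CpG pairs, MEIS2 b 16 and MEIS1 18, against a median of 14. One count was deposited per gene, so none can be assigned to its promoter.

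The total counts were 353430 to 501324 in Mock cells, 648466 to 715327 at d0, 930067 to 1186209 at d3 and 1058754 to 3539937 at d28, and the mitochondrially encoded genes took means of 26.8%, 44.0%, 39.4% and 65.5% of them. Depth and mitochondrial share therefore moved with the groups, and their part in the results was not tested. For either measure, 3 samples against 3 cannot give an exact permutation p below 0.1. The precision of the members is set by few reads per library, with 29 to 145 counts for MEIS1, 9 to 126 for MEIS2 and 3 to 21 for PBX2. Values given as normalized counts were scaled by edgeR's TMM factors to a common effective library size, the average of all libraries. KMT2A, which contributes to both fusions, had mean normalized counts of 29.5 in Mock cells, 39.9 at d0, 61.0 at d3 and 75.2 at d28, and AFF1 had 52.5, 69.2, 60.9 and 64.8. KMT2A passed the test at d3 and d28 against Mock cells and from d0 to d28 (log2 fold change 0.96, adjusted p = 2.94e-05 by edgeR), groups that the labels give one genotype. Whether reads of the transfected fusion genes add to these counts was not tested. The 6 kidney and epithelial genes had a summed normalized count of 108 to 144 per sample, the 7 blood lineage genes one of 54.4 to 80.8 and the 2 pluripotency genes one of 0.856 to 14.8. None of these 15 genes stood at 0 in all samples of a group, so blood and pluripotency genes had counts too.

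MEIS1 (ENSG00000143995, chr2:66435125-66573869 in GRCh38.p14, 139 kb) encodes the MEIS protein best known from HOXA9-driven leukaemia. Its normalized counts were 55.4, 43.8 and 53.5 in Mock replicates 1 to 3 and 85.8, 72.3 and 89.4 at d0. They were 75.5, 94.1 and 87.2 at d3 and 76.5, 78.0 and 78.6 at d28. The highest Mock sample stood below the lowest sample of every other group. The Mock mean was 50.9 ± 6.20 (SD, n = 3), while d0 reached 82.5 ± 8.99 (SD, n = 3), d3 reached 85.6 ± 9.45 (SD, n = 3) and d28 reached 77.7 ± 1.10 (SD, n = 3). Relative to the Mock mean, the log2 fold change was 0.71 at d0 (SE 0.19, adjusted p = 0.0314 by edgeR's quasi-likelihood test). The d3 value was 0.76 (SE 0.17, adjusted p = 0.00289) and that of d28 was 0.62 (SE 0.18, adjusted p = 0.0375). MEIS1 thus rose against Mock cells on each day. Between the 3 days with fusion proteins the samples overlapped. It differed by 0.04 on the log2 scale from d0 to d3 (95% interval -0.25 to 0.34), -0.10 from d0 to d28 (-0.39 to 0.20) and -0.14 from d3 to d28 (-0.40 to 0.13).

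The calls of MEIS1 differed in how far they rested on single libraries. At d3 the call was lost without Mock replicate 2, with a log2 fold change of 0.68 and an adjusted p of 0.0996 by edgeR, and held without any of the 5 others. At d0 it was lost without Mock replicate 2 (adjusted p = 0.335 by edgeR), Mock replicate 3 (0.0747), d0 replicate 1 (0.158) or d0 replicate 3 (0.185), with log2 fold changes of 0.62, 0.75, 0.68 and 0.66. At d28 it was lost without any single sample of the 6, with adjusted p-values by edgeR from 0.0558 to 0.273 and log2 fold changes from 0.54 to 0.71. DESeq2 called MEIS1 at d3 and not at d0 (0.70, adjusted p = 0.0613) or d28 (0.60, adjusted p = 0.103).

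MEIS2 (ENSG00000134138, chr15:36889204-37101311, 212 kb) encodes a close relative of MEIS1 that acts in limb, heart and nervous system development. Its normalized counts were 34.4, 40.0 and 16.6 in Mock replicates 1 to 3 and 41.1, 41.1 and 47.9 at d0. They were 57.0, 70.2 and 70.5 at d3 and 66.5, 59.1 and 59.7 at d28. Mock replicate 3 was the lowest sample and rested on 9 counts, d0 stood just above the Mock samples, and d3 and d28 stood above d0 with no overlap. The means were 30.3 ± 12.2 (SD, n = 3), 43.4 ± 3.94 (SD, n = 3), 65.9 ± 7.73 (SD, n = 3) and 61.7 ± 4.11 (SD, n = 3) in the order Mock, d0, d3 and d28. Relative to Mock cells, the log2 fold change was 1.05 at d3 (SE 0.20, adjusted p = 1.19e-04 by edgeR's quasi-likelihood test) and 0.98 at d28 (SE 0.20, adjusted p = 3.91e-04). At d0 it was 0.45 (SE 0.24, adjusted p = 0.538), with a 95% interval from -0.02 to 0.92. MEIS2 thus rose at d3 and d28 and did not pass at d0.

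Against d0, the log2 fold change of MEIS2 was 0.60 at d3 (SE 0.18, unadjusted p = 9.34e-04 and adjusted p = 0.0736 by edgeR) and 0.53 at d28 (SE 0.18, adjusted p = 0.123). All 3 samples of d3 and all 3 of d28 lay above all d0 samples, but neither difference passed the adjusted threshold. With TMM factors computed over all gene entries before the filter on low counts, an alternative chosen after seeing the data, the d3 value was 0.66 and passed (adjusted p = 0.0299 by edgeR). Between d3 and d28 the value was -0.07 (95% interval -0.36 to 0.21). The call at d3 against Mock cells held in 15 of 15 alternatives, with log2 fold changes from 0.83 to 1.34. The call at d28 held in 14 of 15, and was lost without Mock replicate 3 (0.76, adjusted p = 0.0564 by edgeR). Without the low Mock replicate 3 the d3 value was 0.83, so this library added to the size of both values.

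**Figure D1:**
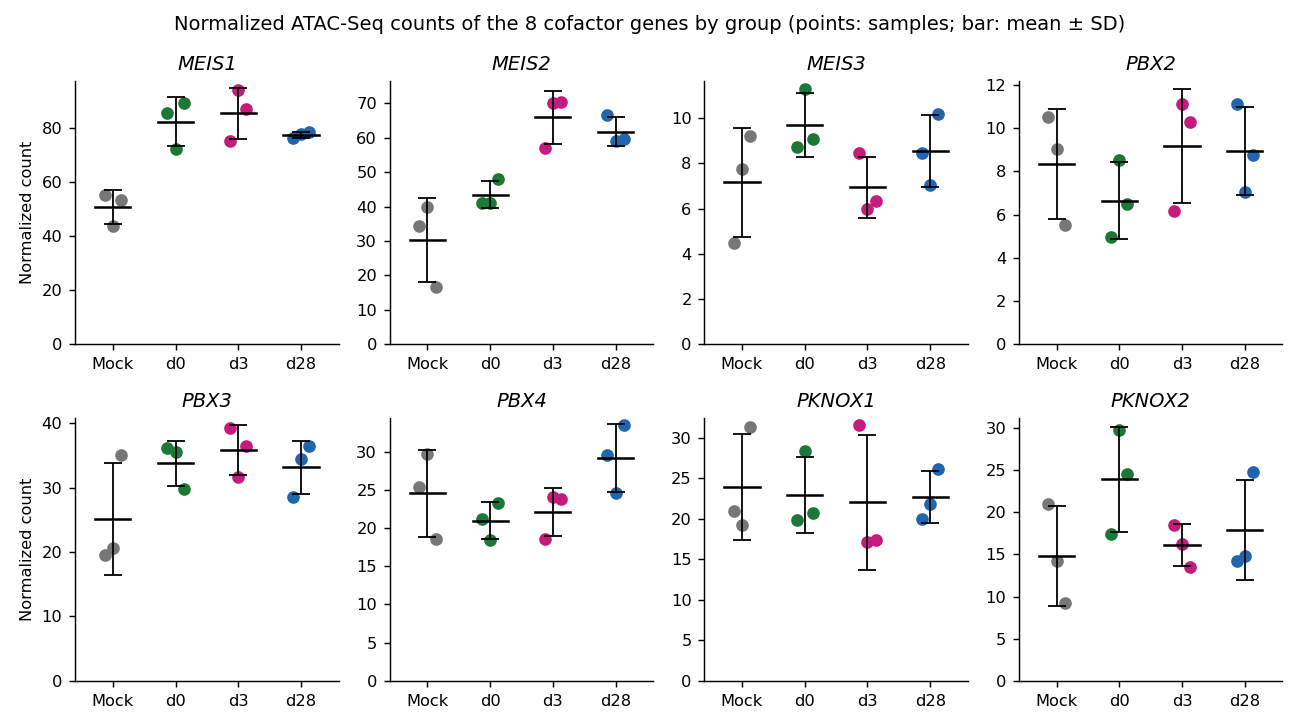
Normalized ATAC-Seq counts (vertical axis, from 0, with its own scale for each gene) of the 8 genes in the 12 samples. Points are samples, bars the mean ± SD of 3 replicates. For MEIS1 and MEIS2 all samples with fusion proteins stand above all Mock samples, but narrowly for MEIS2 at d0 (41.1 against 40.0). That d0 difference did not pass the test (adjusted p = 0.538 by edgeR). How many of all tested genes show such a separation was not counted, so it only describes the points.

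MEIS3 (ENSG00000105419, chr19, 19.1 kb), the least studied of the MEIS genes, had few counts. Its normalized counts ranged from 4.49 to 9.23 in Mock cells, 8.71 to 11.3 at d0, 5.99 to 8.47 at d3 and 7.03 to 10.2 at d28. All d0 samples stood above all d3 samples, and each other pair of groups overlapped. From d0 to d3 it differed by -0.46 on the log2 scale (95% interval -1.33 to 0.40, adjusted p = 0.752 by edgeR), and against Mock cells it was 0.45, -0.02 and 0.22 at d0, d3 and d28. The interval at d3 against Mock cells ran from -0.99 to 0.96, which includes the value of MEIS1 (0.76) and leaves out that of MEIS2 (1.05).

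PKNOX1 and PKNOX2 encode the PREP proteins, which compete with MEIS proteins for PBX. PKNOX1 (ENSG00000160199, chr21, 59.4 kb) had normalized counts of 21.0, 19.3 and 31.4 in Mock cells, 19.9, 28.4 and 20.7 at d0. The d3 samples had 31.6, 17.1 and 17.4, and those of d28 had 20, 21.8 and 26.2. The 4 groups overlapped, with means between 22 and 23.9. Its log2 fold changes against Mock cells were -0.03, -0.06 and -0.09, and the 95% interval at d3 ran from -0.61 to 0.48, which leaves out the estimates of MEIS1 and MEIS2 at d3. The difference between the genes was not tested.

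PKNOX2 (ENSG00000165495, chr11, 269 kb) showed another order of groups. Its normalized counts were 21.0, 14.2 and 9.23 in Mock cells, 17.4, 29.8 and 24.6 at d0. The d3 samples had 18.5, 16.3 and 13.5, and those of d28 had 14.2, 14.8 and 24.8. The highest mean was that of d0, 23.9 ± 6.21 (SD, n = 3), compared with a Mock mean of 14.8 ± 5.89 (SD, n = 3), and the samples overlapped. The log2 fold change was 0.65 at d0 relative to Mock cells (95% interval -0.01 to 1.31, adjusted p = 0.526 by edgeR), -0.56 from d0 to d3 (adjusted p = 0.449) and -0.53 from d0 to d28 (adjusted p = 0.430). None passed, also without adjustment. PKNOX2-AS1, an antisense RNA gene within the span of PKNOX2, had 46 counts in all samples against 209 for PKNOX2 (22%), and MEIS1-AS2 within MEIS1 had 51 against 917 (5.56%). ATAC-Seq reads carry no strand of transcription, so reads of such pairs cannot be told apart by strand.

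The PBX genes encode the partners of both MEIS and PKNOX proteins. PBX3 (ENSG00000167081, chr9, 220 kb) had normalized counts of 19.5, 20.6 and 35.1 in Mock cells and 36.1, 35.5 and 29.8 at d0. They were 39.3, 31.7 and 36.5 at d3 and 28.5, 34.5 and 36.4 at d28. Mock replicates 1 and 2 stood below all other samples, while Mock replicate 3 lay among them. Its log2 difference from Mock cells was 0.48 at d0 (SE 0.27, adjusted p = 0.594 by edgeR), 0.57 at d3 (SE 0.25, unadjusted p = 0.0221, adjusted p = 0.328) and 0.41 at d28 (SE 0.25, adjusted p = 0.523). The direction was that of MEIS1 and MEIS2 in each, and none passed the adjusted threshold. Over the alternatives the d3 value lay between 0.45 and 0.85.

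PBX4 (ENSG00000105717, chr19, 57 kb), known for its activity in the testis, had normalized counts of 25.4, 29.7 and 18.5 in Mock cells, 21.2, 18.4 and 23.3 at d0. The d3 samples had 18.5, 24 and 23.8, and those of d28 had 29.5, 24.6 and 33.5. The d28 samples stood above those of d0 and d3 and overlapped with Mock cells. The log2 fold change was 0.44 from d0 to d28 (SE 0.26, adjusted p = 0.496 by edgeR) and 0.37 from d3 to d28 (SE 0.22, adjusted p = 0.653). PBX2 (ENSG00000204304, chr6, 5.47 kb), which is active in most tissues, had group means of 8.35 to 9.20 in Mock cells, d3 and d28 and 6.65 at d0. Its 12 samples ran from 4.98 to 11.1 and the groups overlapped, with log2 fold changes against Mock cells of -0.37, 0.09 and 0.10. PBX2 lies in the MHC region, and it has a processed copy, PBX2P1. MEIS3 has the copies MEIS3P1 and MEIS3P2. These copies held at most 4 counts in a sample and were not tested, and how reads shared with them were counted is not given in the sources used here.

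Over the 8 genes, 1 of 8 was called at an adjusted p below 0.05 at d0 against Mock cells, where 0.609% of all tested genes were called. The counts were 2 of 8 at d3 (1.27% of all tested genes) and 2 of 8 at d28 (1.45%). In the comparisons between days 0 of 8 were called from d0 to d3 (0.91%), from d0 to d28 (1.35%) and from d3 to d28 (0.37%). All calls were higher in the cells with fusion proteins. At an unadjusted p below 0.05 by edgeR the counts were 1 at d0 (9.65% of all tested genes), 3 at d3 (11.3%) and 2 at d28 (12.5%), then 1 from d0 to d3 (11.4%), 1 from d0 to d28 (12.6%) and 0 from d3 to d28 (8.83%). DESeq2 called 0, 2 and 1 of 8 against Mock cells and 0 of 8 in each comparison between days.

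The median log2 fold change of the 8 genes against Mock cells was 0.45, 0.09 and 0.20 on d0, d3 and d28, beside -0.002, 0.03 and 0.03 over all tested genes. Between days it was 0.05, -0.07 and -0.01 beside 0.02, 0.04 and 0.01. The 8 genes did not move as one. At d28 against Mock cells 7 of 8 values were positive, but 3 of 8 were positive when libraries were scaled by the counts outside the mitochondrial genes, a scaling that moved the median of all tested genes to -0.24. The 3 days share the Mock samples, so their values are given side by side and not compared as independent.

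**Figure D2:**
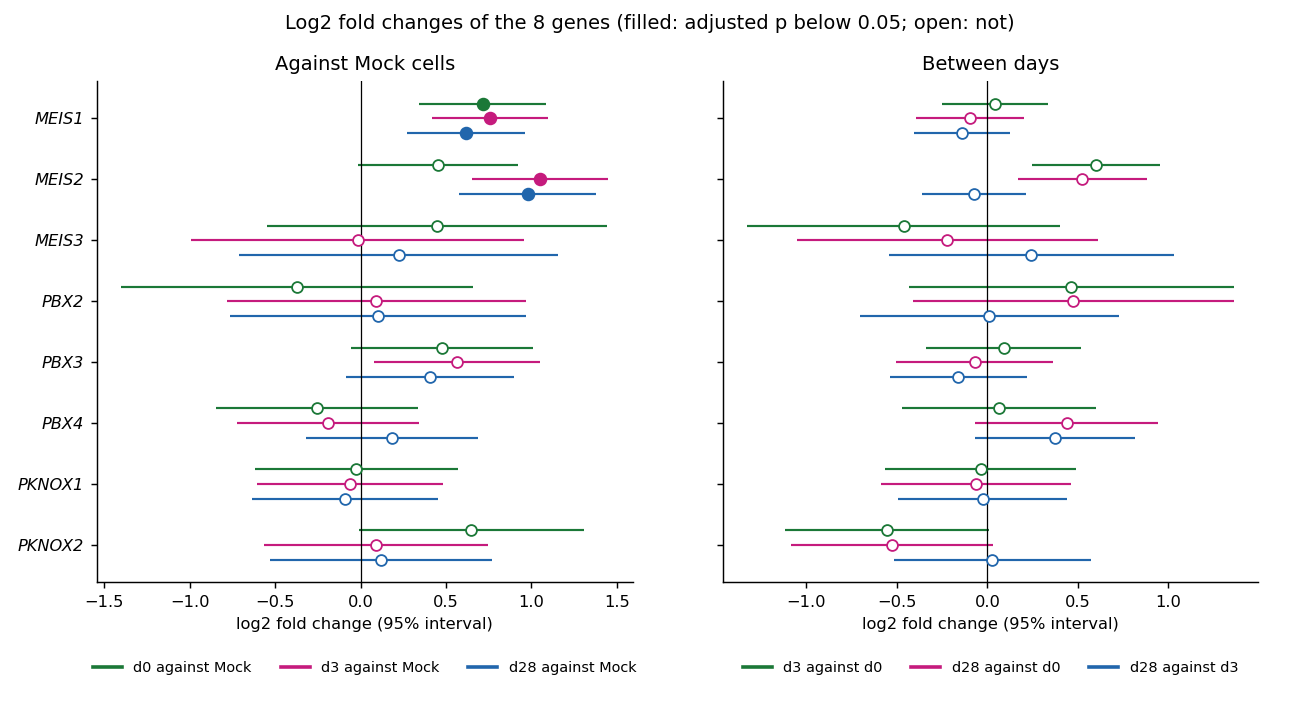
Log2 fold changes (horizontal axis) of the 8 genes in the 3 comparisons with Mock cells and the 3 between days. Points are estimates from edgeR, lines their 95% intervals, and filled points passed an adjusted p of 0.05. The filled points are MEIS1 on each day and MEIS2 at d3 and d28, all against Mock cells.

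Levels between genes were compared per kb of the RefSeq span, since the genes differ in length from 5.47 kb to 269 kb. The interval in which the reads were counted is not given in the sources used here, and over 16888 tested protein-coding genes the normalized count followed the span only weakly (Spearman's rho 0.157), so this order also carries the length of the genes. The mean over 12 samples was 1.52 normalized counts per kb for PBX2 and 0.53 for MEIS1. PBX2 stood above MEIS1 in 12 of 12 samples. PBX4, MEIS3 and PKNOX1 followed with 0.425, 0.423 and 0.386, and PBX4 was above MEIS3 in 7 of 12 samples, MEIS3 above PKNOX1 in 9 of 12 and MEIS1 above PBX4 in 9 of 12, so the ranges of these neighbours overlapped. MEIS2 had 0.237, PBX3 0.145 and PKNOX2 0.0676. The median of the 16888 genes was 0.468. By count alone MEIS1 stood at percentile 98 and MEIS2 at percentile 93 of these genes, but per kb at percentiles 53.4 and 32.6. Genes over 100 kb, the class that holds MEIS1, MEIS2, PBX3 and PKNOX2, had median log2 fold changes of 0.09, 0.01 and 0.08 on d0, d3 and d28 against Mock cells.

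The HOX genes are the partners of these cofactors, and 38 of 39 were tested. Against Mock cells 30, 35 and 34 of 38 values were positive at d0, d3 and d28, beside 49.8%, 52.1% and 52.4% of all tested genes. The 3 medians in that order were 0.26, 0.44 and 0.32. Each stayed positive in 15 of 15 alternatives on each day, ranging from 0.19 to 0.32 at d0, 0.36 to 0.52 at d3 and 0.05 to 0.41 at d28, where it was lowest with libraries scaled by the counts outside the mitochondrial genes. Under that scaling 22 of 37 values were positive at d28. HOX genes lie side by side in clusters, and the spans of HOXC4, HOXC5 and HOXC6 overlap. The days also share the Mock samples, so these counts are not of independent values. Calls were few. At d3 against Mock cells 1 of 38 was called, HOXB8 (0.79, adjusted p = 0.0224 by edgeR, normalized counts 60.1, 51.4 and 50.7 against 29.9, 30.9 and 33.2). At d28 1 of 38 was called, HOXA9 (0.77, adjusted p = 0.0316), the partner of MEIS1 named above. Its normalized counts were 26.9, 28.4 and 36.9 in Mock cells, 47.3, 39.7 and 24.6 at d0. The d3 samples had 43.1, 47.1 and 41.2, and those of d28 had 55.4, 53.4 and 39.3. The d3 and d28 samples stood above all Mock samples, and those of d0 overlapped with them.

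From d0 to d28 HOXB13 was called among the 38 (log2 fold change 1.00, adjusted p = 0.0287 by edgeR), and edgeR called 0 of 38 at d0 against Mock cells, from d0 to d3 and from d3 to d28, with 5, 6 and 1 at an unadjusted p below 0.05. DESeq2 called 0 of 38 in each of the 6 comparisons, with 1 to 5 at an unadjusted p below 0.05. Scaling libraries by the counts outside the mitochondrial genes ended the calls of HOXB8, HOXA9 and HOXB13. Leaving out any of Mock replicates 1, 2 or 3 or d3 replicate 1 ended that of HOXB8 (0.70 to 0.84), leaving out Mock replicate 1 or 2 or d28 replicate 1 or 2 ended that of HOXA9 (0.69 to 0.75), and leaving out any sample of d0 or d28 ended that of HOXB13 (0.96 to 1.06).

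Of the other TALE genes (TGIF1, TGIF2, IRX1 to IRX6 and MKX), 8 of 9 were tested. Only IRX6, an Iroquois gene, was called, and it was lower at d28 than in Mock cells (-1.15, SE 0.31, adjusted p = 0.0235 by edgeR). Its normalized counts were 25.4, 32.2 and 16.6 in Mock cells and 11.6, 11.2 and 11.6 at d28. The call was lost without Mock replicate 1 (adjusted p = 0.0829) or 2 (-0.86, adjusted p = 0.380), or without d28 replicate 1 (0.102) or 2 (0.0897), and DESeq2 gave no adjusted p for it. The medians of the list against Mock cells were -0.20, 0.12 and 0.04, and they changed sign between alternatives at d3 and d28. The 3 companion RNA genes that were tested, MEIS1-AS2, MEIS1-AS3 and PKNOX2-AS1, were called 0 of 3 times in each comparison by edgeR and by DESeq2, and neither gave an unadjusted p below 0.05.

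**Figure D3:**
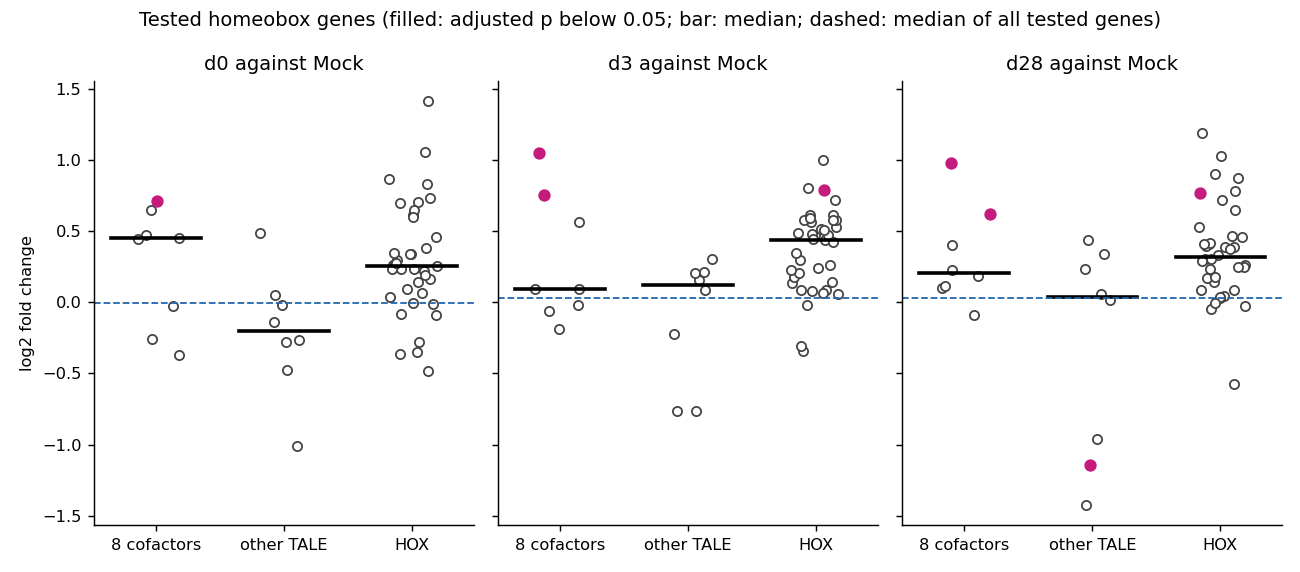
Log2 fold changes against Mock cells (vertical axis) of the 8 cofactors, the 8 tested other TALE genes and the 38 tested HOX genes. Each point is 1 gene, filled where the adjusted p was below 0.05, bars are list medians and the dashed line is the median of all tested genes. The HOX medians of 0.26, 0.44 and 0.32 lie above the dashed line on each day, as do the cofactor medians of 0.45, 0.09 and 0.20. Single genes of both lists lie on either side of it.

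The neighbours of a gene show whether a value stands alone along its chromosome. For each member the 5 nearest tested protein-coding genes on either side in RefSeq order were taken. Around MEIS2 4 of 10 neighbours were positive at d0, 8 of 10 at d3 and 9 of 10 at d28 against Mock cells. Of all tested genes 49.8%, 52.1% and 52.4% were positive. The median log2 fold changes of the neighbours were -0.15, 0.76 and 0.66, beside 0.45, 1.05 and 0.98 for MEIS2. Relative to d0 their medians were 0.50 for d3 and 0.53 for d28, beside 0.60 and 0.53 for MEIS2. The medians at d3 and d28 against Mock cells stayed positive in 15 of 15 alternatives, from 0.58 to 0.89 and from 0.40 to 0.84, and the d0 median ranged from -0.24 to 0.06. The nearest neighbours lay 833 kb and 1340 kb from MEIS2.

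Against Mock cells 1 of the 10 neighbours of MEIS2 was called at d0, 2 at d3 and 1 at d28. The shares called of all tested genes were 0.609%, 1.27% and 1.45%. SPRED1, an inhibitor of Ras signalling, was called at d3 against Mock cells (1.17, adjusted p = 0.0473 by edgeR) and in 4 of 15 alternatives, and leaving out any 1 of the 6 samples ended the call (0.90 to 1.41). AQR, a splicing helicase, was called from d0 to d3 (1.14, adjusted p = 0.0222) and from d0 to d28 (1.07, adjusted p = 0.0318), in 11 and 7 of 15 alternatives. The first AQR call was lost without d0 replicate 1 or 2 or d3 replicate 2 (0.88 to 1.14) and the second without any d0 sample or d28 replicate 1 or 2 (0.94 to 1.25). ACTC1, cardiac actin, was called lower on each day (-3.16, -3.68 and -3.26), and this rested on Mock replicate 1. Without that library the values were 1.16, 0.64 and 1.05, with adjusted p-values by edgeR of 0.816, 0.881 and 0.741.

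Of the 10 neighbours of MEIS1, 7 were positive at d0, 8 at d3 and 7 at d28, with medians of 0.20, 0.22 and 0.20, all below the value of MEIS1 on the same day. C1D, a factor of RNA processing that lies 1470 kb away, was called at d3 (2.03, adjusted p = 4.39e-04 by edgeR) and d28 (2.06, adjusted p = 1.99e-04), while at d0 it did not pass (1.05, adjusted p = 0.507). ETAA1, an activator of the replication stress kinase ATR, was called at d28 (1.41, adjusted p = 0.0104) and SLC1A4, an amino acid transporter, was called lower there (-0.96, adjusted p = 0.0265). The ETAA1 call was lost without Mock replicate 1 or 2 or d28 replicate 3 (1.25 to 1.49), and that of SLC1A4 without any Mock sample or d28 replicate 1 or 2 (-1.01 to -0.84). DESeq2 called 0 of these 10 neighbours at d28, so the calls of C1D, ETAA1 and SLC1A4 there did not hold with it. The C1D call at d3 held in 15 of 15 alternatives, and that at d28 in 14 of 15.

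Among the neighbours of the other members, HSPA5, the chaperone gene 506 kb from PBX3, was called against Mock cells at d0 (1.22) and d3 (1.71) and from d3 to d28 (-1.12), whereas PBX3 itself was called in none of these. HSPA5 was also called from d0 to d3 (0.49, adjusted p = 0.043 by edgeR) and lower from d0 to d28 (-0.63, adjusted p = 0.0104). The first call was lost without d0 replicate 1 or 3 or d3 replicate 1 or 3 (0.37 to 0.52), and the second without d0 replicate 1 or 2 or d28 replicate 1 (-0.59 to -0.49). TMEM218, 53.1 kb from PKNOX2, was called lower from d0 to d3 (-0.75, adjusted p = 0.0443 by edgeR) and from d0 to d28 (-0.75, adjusted p = 0.0318). PKNOX2 had values of -0.56 and -0.53 there and was not called. The 2 TMEM218 calls were lost without d0 replicate 1 or 2, the first also without d3 replicate 2 or 3 and the second without d28 replicate 1 or 3 (-0.70 to -0.62 and -0.69 to -0.62). NAPA near MEIS3 was called at d3 (0.90, adjusted p = 0.0485) and lost the call without any 1 of the 6 samples (0.77 to 1.06).

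**Figure D4:**
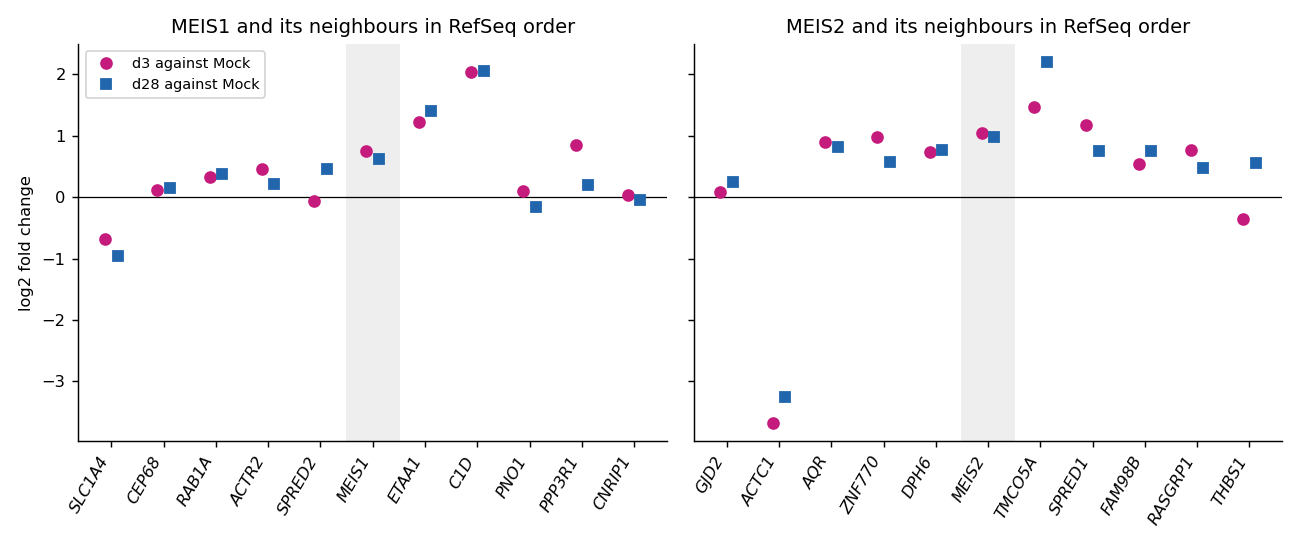
Log2 fold changes (vertical axis) of MEIS1 and MEIS2, shaded, and of the 5 nearest tested protein-coding genes on either side, in RefSeq order and not to scale along the chromosome. Circles are d3 and squares d28 against Mock cells. Of the neighbours of MEIS2, 8 of 10 circles and 9 of 10 squares lie above 0, and ACTC1, far below it, rests on Mock replicate 1.

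The genes most like a member over the 12 samples were those with the highest Pearson correlation of log2(normalized count + 1), among 8329 genes whose normalized counts averaged at least 20. These are descriptions, as the samples share group, library and depth. For MEIS1 they were NR2F2, an orphan nuclear receptor (0.944), GVQW2 (0.929) and AL158835.2 (0.927). For MEIS2 they were CPD, a carboxypeptidase (0.944), ZBED9 (0.938) and ATP6V0E1, a proton pump subunit (0.929). PBX3 was most like FAM122C (0.908), RELL2 (0.894) and IMPA2 (0.889), and PKNOX1 most like SPIRE2 (0.917), EIF4H (0.903) and PCGF5 (0.869). The values for PBX4 were lower, with AL022311.1 (0.826), CENPO (0.825) and GOLGA6L10 (0.813). None of these lists held another of the 8 members or a HOX gene.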

How the data were processed

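ATAC-Seq was measured in 12 samples, and the authors deposited whole-number counts of reads per gene entry, without normalization. The submitters' processing notes name bcl2fastq, Bowtie2, HTSeq and GRCh38. Versions, the interval counted per gene, the read shift and the removal of duplicates are not given in the sources used here, so the counts cannot be tied to promoters. Intervals cover counting error and the spread between replicates as modelled, and PCR copies are not independent molecules.

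The analysis used edgeR 4.0.16 under R 4.3.3. The tested genes (27579) were those whose normalized counts averaged more than 2 in any of the 4 groups, TMM factors were computed on them, and the quasi-likelihood F test was fitted to all 12 samples with group as the only term. P-values were adjusted by Benjamini-Hochberg over all tested genes and called below 0.05. The SE is the size of the log2 fold change over the square root of F. Total counts were 353430 to 3539937 per sample. The procedure was tested on simulated data. No changed gene there had a mean count as low as MEIS3 or PBX2, and no change was as small as those of MEIS1. Alternatives were DESeq2 1.42.0, RLE factors, library sizes without the 37 mitochondrial genes, 2 other filters, only the groups compared, a replicate block, each sample left out, and 2 ways of computing TMM chosen after seeing the data. Pairs of replicates had chi-squares of 1.06 to 1.38 per degree of freedom, not far above counting error alone. All were kept as separate samples because they are described as biological replicates. These values cannot show whether the replicates were separate cultures, and the p-values may measure little beyond counting error.

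All 8 members are named. Companion entries, other TALE and HOX genes, neighbours, the 3 genes most like each member averaging at least 20 normalized counts, and KMT2A and AFF1 were listed by rule, and the listed families and neighbours are named where past the adjusted p. The members and lists were chosen with earlier results of these data known. Gene spans, neighbours and promoters are from RefSeq (GRCh38.p14). Plots were made by Python 3.11.15 and matplotlib 3.10.9.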

Additional observations from a re-analysis of the deposited data

How the results depend on the processing

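Of 708 values of the 8 genes recomputed under alternatives, 634 kept their direction and their side of the threshold, 17 lost a call, 1 gained one and 56 changed sign. None of those 56 had been called, and their sizes were at most 0.34. The count of called members fell to 0 at d0 against Mock cells with DESeq2, with library sizes without mitochondrial genes and with no filter on low counts (MEIS1 0.65 to 0.73), and to 1 at d28 with DESeq2 and with library sizes without mitochondrial genes (MEIS1 0.36, adjusted p = 0.268 by edgeR). From d0 to d3 it rose to 1 with TMM factors before the filter. With single samples left out it ranged from 0 to 1 at d0, from 1 to 2 at d3 and from 0 to 1 at d28. With the replicate block the counts of called members were 1, 2 and 2 against Mock cells and 0 between days, as without it. The deviations of samples with the same replicate number had correlations between -0.153 and 0.0824 over 8295 genes. Most of this spread is counting error, so these values cannot show whether the same numbers pair the samples. The block lowered the genes called in the series from 168, 351 and 401 to 156, 325 and 371 against Mock cells, and ended the calls of NAPA (0.90), HOXA9 (0.74), TMEM218 from d0 to d3 (-0.75) and AQR from d0 to d28 (1.03).

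Values that changed sign were those of PKNOX1 from d3 to d28 with DESeq2 (0.032), RLE factors (0.006) and filterByExpr (0.029). With library sizes without mitochondrial genes, at d28 against Mock cells, they were MEIS3 (-0.032), PBX2 (-0.15), PBX4 (-0.076) and PKNOX2 (-0.138), and from d3 to d28 PBX2 (-0.16) and PKNOX2 (-0.145). With filterByExpr it was MEIS1 from d0 to d3 (-0.019), and MEIS3 and PBX2 were too low to be tested there. With no filter and with TMM factors before the filter, at d3 against Mock cells, they were MEIS3 (0.058) and PKNOX1 (0.014), and from d0 to d3 PKNOX1 (0.026). MEIS3 at d3 against Mock cells was 0.002 with TMM without mitochondrial genes. The following are the lowest and highest values with single samples left out, for genes that changed sign in any. At d0 against Mock cells they were ACTC1 -3.92 to 1.16 and PKNOX1 -0.19 to 0.18. At d3 against Mock cells they were ACTC1 -4.33 to 0.64, MEIS3 -0.24 to 0.18, PBX2 -0.07 to 0.32, PBX4 -0.313 to 0.011, PKNOX1 -0.43 to 0.16 and PKNOX2 -0.09 to 0.42. At d28 against Mock cells they were ACTC1 -3.91 to 1.05, MEIS3 -0.002 to 0.42, PBX2 -0.16 to 0.29, PKNOX1 -0.20 to 0.14 and PKNOX2 -0.06 to 0.44. From d0 to d3 they were MEIS1 -0.033 to 0.12, PBX4 -0.009 to 0.17 and PKNOX1 -0.41 to 0.13. From d0 to d28 they were PBX3 -0.15 to 0.06 and PKNOX1 -0.14 to 0.11. From d3 to d28 they were PBX2 -0.25 to 0.18, PKNOX1 -0.17 to 0.34 and PKNOX2 -0.15 to 0.18.

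Over the series, DESeq2 called 100, 144 and 174 genes against Mock cells and 45, 135 and 62 between days, against 168, 351, 401, 251, 372 and 102 by edgeR, of which 114, 230, 233, 165, 188 and 70 were higher. With library sizes without mitochondrial genes the d28 counts were 1278 against Mock cells, 906 against d0 and 507 against d3, 90, 71 and 35 of them higher, with medians of all genes of -0.24, -0.16 and -0.17, and 113 genes were called at d0 (52 higher) and 261 at d3 (111 higher). With TMM before the filter 488 were called at d3 (395 higher) and 441 at d28 (323 higher), and the medians were 0.10 and 0.10. The cause was not tested. Depth limits MEIS3 and PBX2 most.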
